A study of Mus musculus with 30 samples.

Results

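The clustered protocadherins are cell-surface adhesion proteins of neurons, encoded by 3 neighbouring gene clusters, alpha, beta and gamma, on mouse chromosome 18. Genes were taken by symbol, as those whose name begins with Pcdha, Pcdhb, Pcdhga, Pcdhgb, Pcdhgc or Pcdhac and ends in a digit. This gave 24 of the 17477 genes in the deposited count table, namely all 22 beta genes (Pcdhb1 to Pcdhb22) and 1 gene each for alpha (Pcdha11) and gamma (Pcdhgc5). RNA-seq counts of hippocampus came from 8 Social Isolation (SI) and 7 Group Housed (GH) females, animals 41 to 79, and from 7 SI and 8 GH males, animals 1 to 39. All were adult C57 BL/6J mice. SI mice were caged singly from weaning and GH mice shared cages. Each library came from 1 mouse.

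Each neuron switches on its own mixture of these genes by choosing among many promoters, a choice that needs the DNA-binding protein CTCF and the cohesin ring and is tied to DNA methylation. The proteins bind identical copies on other membranes, which lets the branches of a neuron tell self from other. A beta gene is a single exon with its own end, while alpha and gamma transcripts join a variable first exon to constant exons shared by the whole cluster. The C-type genes at the ends of the alpha and gamma clusters are used more uniformly across neurons than the others.

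That shared structure limits the alpha and gamma measurements. RefSeq lists 14 alpha and 22 gamma symbols, of which only Pcdha11 and Pcdhgc5 were paired with an Ensembl ID of the table. The pairing is that of GENCODE vM1, where both IDs cover 10 coding transcripts that run along their cluster. Which transcripts the IDs held in the authors' newer annotation is not given in the sources used here. Both are therefore called the Pcdha11 row (ENSMUSG00000007440) and the Pcdhgc5 row (ENSMUSG00000023036), and neither stands for its whole cluster. The beta genes lie between positions 37424652 and 37681073 on the plus strand of chromosome 18 (NCBIM37), with transcripts of 2340 to 7131 bases. Being close copies, they share a median of 11.8% of their 31-base words with other genes, from 0% in Pcdhb1 to 27.1% in Pcdhb8, so some reads could have been credited to a neighbour. Pcdhb20 was filed as a pseudogene in vM1 and has no coding length there.

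Libraries held 18809307 to 100844898 counts. SI males 25, 33 and 39 stood apart from the other 27 libraries. Genes with transcripts under 1000 bases took 12.6% to 15.8% of their counts, against 5.21% to 10.4% in every other mouse. Ribosomal protein genes took 3.14% to 4.05% of their counts, against 1.16% to 2.28% elsewhere. The summed CPM (counts per 1000000 of TMM-scaled library size) of 3 neuronal markers (Rbfox3, Snap25 and Syt1) was 2759 to 2778 in these libraries and 2619 to 3033 in GH males. That sum hides wider spreads of the single genes, in both directions. Over all SI males Rbfox3 ran from 343 to 782 CPM, against 319 to 388 in GH males. Snap25 ran from 1358 to 1806 CPM, against 1558 to 1780, and Syt1 from 597 to 1216 CPM, against 687 to 1049. Of 12 marker lists, the sum of CA1 markers lay wholly below the GH males in SI males 25, 33 and 39 (349 to 390 CPM, against 483 to 657). Sums for CA3 (133 to 159 CPM, against 77.5 to 115), interneurons (762 to 837 CPM, against 564 to 674), oligodendrocytes (6724 to 9212 CPM, against 4641 to 6175), microglia (229 to 283 CPM, against 180 to 225) and endothelial cells (191 to 243 CPM, against 102 to 163) lay wholly above. The other 6 lists overlapped with GH males. Log2FC of the genes singled out in males is given with and without these libraries.

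In GH mice the beta genes differed widely in level per transcript length. Pcdhb9 was the highest, at 4.17 ± 0.42 CPM per 1000 bases in GH females (SD, n = 7) and 4.10 ± 0.25 in GH males (SD, n = 8). Pcdhb17 followed at 3.33 ± 0.38 in GH females and Pcdhb22 at 2.88 ± 0.27. In GH females each of these neighbours in the order differed by more than the larger of their SDs. In GH males Pcdhb9 and Pcdhb17 (3.64 ± 0.54) did not. Pcdhb12, Pcdhb14 and Pcdhb7 came next, between 2.03 and 2.23, and did not differ between neighbours beyond the SD. From Pcdhb10 to Pcdhb11, and again from Pcdhb16 to Pcdhb4, no adjacent pair differed beyond the SD either. In all, 13 of the 20 adjacent pairs of GH females lay within it. Pcdhb21 (0.335 ± 0.074) and Pcdhb1 (0.054 ± 0.019) ended the order.

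The order was nearly the same in GH males, where the first 4 genes and the last 2 held their ranks. Pcdhb9 made up 11.6% ± 0.70 of the summed beta CPM in GH females and 11.4% ± 0.59 in GH males. Pcdhb1 lay close to the detection limit, with 0 to 17 counts per mouse and 0 counts in SI female 53, SI males 25 and 33 and GH male 16. It failed the filter on low counts in both sexes, so 23 of the 24 genes were tested.

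**Figure D1:**
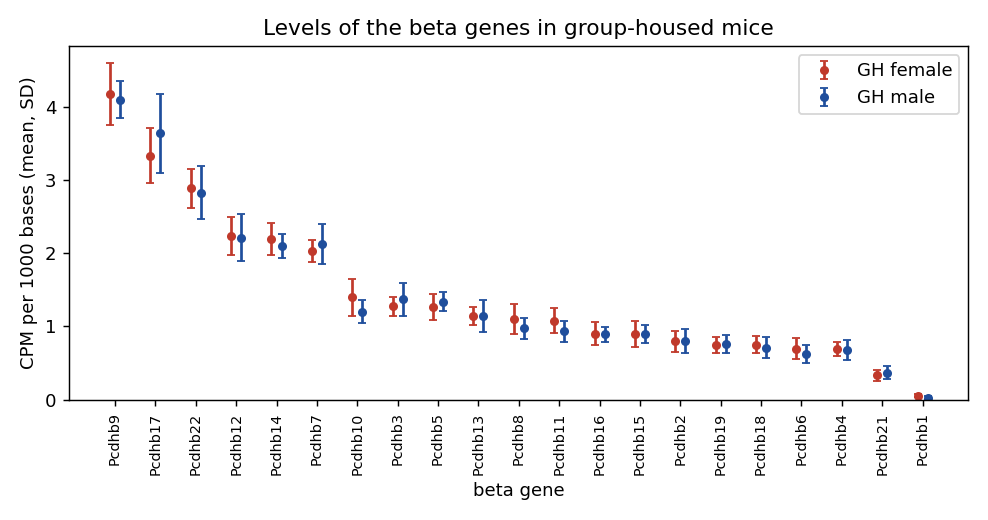
Mean level of each beta gene with a transcript length, in CPM per 1000 bases, with the SD over GH females (n = 7) and GH males (n = 8). Pcdhb9, Pcdhb17 and Pcdhb22 lie highest and Pcdhb1 lies near 0 in both sexes.

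The first comparison asks whether isolation from weaning went with altered protocadherin RNA in adult females. None of the 23 genes tested was a DEG (differentially expressed gene, adjusted p under 0.05) by edgeR's quasi-likelihood test with 3 surrogate variables, estimated covariates for unlabelled variation. Over all 16026 genes the same fit called 3.89%. DESeq2 with the same surrogate variables and limma-voom without them also called 0 of the 23. Over all 16026 genes these 2 fits called 1262 and 838. At an unadjusted p under 0.05 there was 1 gene of 23 (4.35%), Pcdhb5, against 20.2% of all genes.

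Pcdhb5 ranged from 4.29 CPM over a median of 4.80 to 6.65 CPM in SI females, and from 3.70 over 4.36 to 5.74 CPM in GH females. The groups overlapped, and the highest value was that of SI female 45. Its Log2FC was 0.18 ± 0.080 (SE; unadjusted p = 0.0343, adjusted p = 0.202 by edgeR with Benjamini-Hochberg adjustment). Pcdhb6 had the highest Log2FC of the beta genes at 0.26 ± 0.14 (adjusted p = 0.310 by edgeR). It spanned 1.81 to 3.23 CPM in SI females and 1.45 to 2.63 CPM in GH females. Pcdhb7, with 6.64 to 9.41 CPM under SI and 6.43 to 7.85 CPM under GH, had a Log2FC of 0.11 ± 0.069 (adjusted p = 0.383 by edgeR).

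Most female differences were small and above 0. Log2FC was above 0 for 17 of the 21 beta genes tested, with a median of 0.09 and a range of -0.15 to 0.26. Counting the alpha and gamma rows too, 18 of 23 (78.3%) were above 0, against 52.8% of all genes, whose median Log2FC was 0.0077. The 4 beta genes below 0 were Pcdhb17 (-0.01), Pcdhb18 (-0.11), Pcdhb19 (-0.15) and Pcdhb22 (-0.08). Genes of 1 cluster share sequence and libraries, so they do not vary independently. The summed beta level was 114 ± 12.9 CPM in SI females (SD, n = 8) and 110 ± 7.97 CPM in GH females (SD, n = 7). SI female 45, the most deeply sequenced library, was highest at 141 CPM, and the group ranges of 101 to 141 and 94.9 to 120 CPM overlapped.

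The alpha and gamma rows of females also overlapped between the groups. Pcdha11 ranged from 4.42 over 5.73 to 9.11 CPM in SI females and from 4.01 over 4.30 to 7.03 CPM in GH females. Its Log2FC was 0.21 ± 0.14 (adjusted p = 0.424 by edgeR). The Pcdhgc5 row, which held the most counts of the 24, ranged from 126 over 163 to 283 CPM in SI females and from 140 over 166 to 239 CPM in GH females. Its Log2FC was -0.07 ± 0.074 (adjusted p = 0.623 by edgeR), and 0.03 without surrogate variables.

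**Figure D2:**
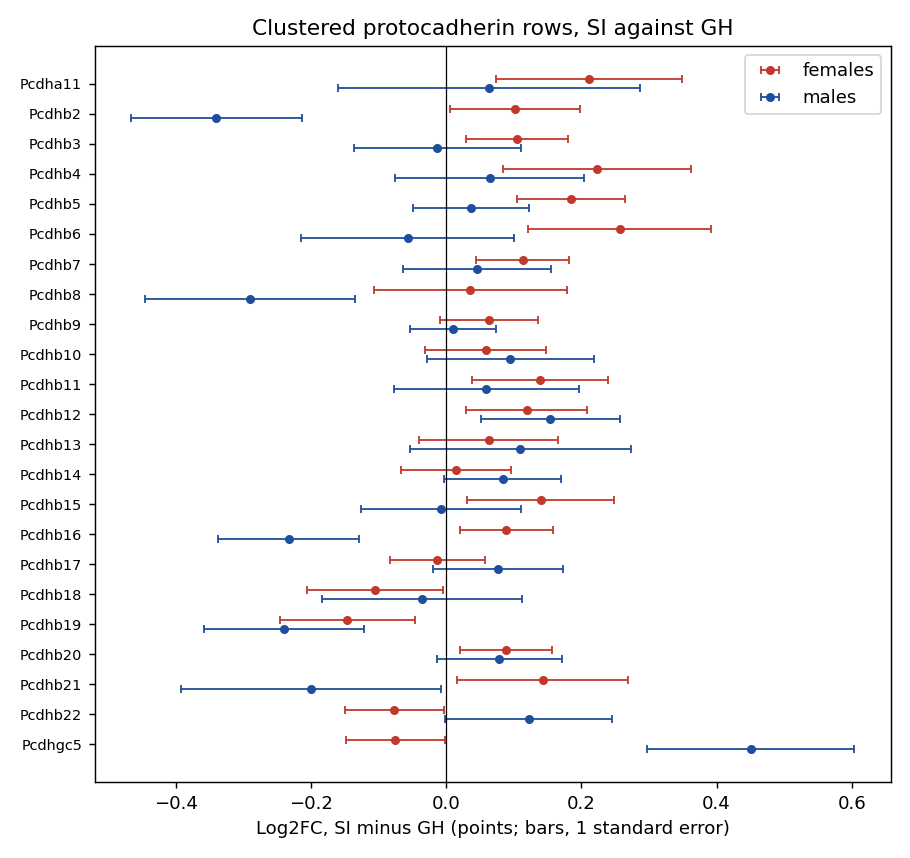
Log2FC of SI minus GH (points) with 1 standard error (bars) for the 23 genes that passed the filter, in cluster order, for females and males. Most female points lie slightly above 0, and in males Pcdhgc5 (0.45) and Pcdhb2 (-0.34) lie farthest from it.

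For males the study itself reported DEGs, using DESeq2 and surrogate variables of its own. As in females, none of the 23 genes was a DEG in males by edgeR's quasi-likelihood test, here with 2 surrogate variables. The share over all 15833 genes in that fit was 0%. DESeq2 with the same surrogate variables and limma-voom without them called 0 of the 23 as well. Over all 15833 genes these 2 fits called 44 and 0. DESeq2 gave Pcdhb2 no adjusted p, so that gene could not be called by it. An unadjusted p under 0.05 was found for 3 of the 23 (13.0%), against 13% of all genes. These were the Pcdhgc5 row, which was higher in SI, and Pcdhb2 and Pcdhb16, which were lower. Of the 23 genes, 14 (60.9%) had a Log2FC above 0, against 49.3% of all genes. The median over the 21 beta genes was 0.04 (range -0.34 to 0.15), beside a median of -0.0020 over all genes. Without surrogate variables the beta median was -0.16, with 20 of the 21 below 0. Without SI males 25, 33 and 39, 0 of the 23 were called by edgeR, against 0.00616% of all genes, and 1 (4.35%), Pcdhb3 at -0.24 ± 0.10, had an unadjusted p under 0.05, against 6.29%. No gene separated the groups fully in either sex, while 0.312% of all genes did so in females and 0.0568% in males.

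The Pcdhgc5 row had 405, 436, 440 and 405 CPM in SI males 39, 25, 33 and 38, and 171, 205 and 243 CPM in SI males 8, 27 and 7. GH males lay between 159 and 258 CPM with a median of 176. Thus 4 of 7 SI males were above every GH male, and the other 3 were inside the GH range. The Log2FC was 0.45 ± 0.15 (unadjusted p = 0.00912, adjusted p = 0.312 by edgeR with Benjamini-Hochberg adjustment). Without SI males 25, 33 and 39 it was 0.09 ± 0.074 (adjusted p = 0.910 by edgeR). An exact two-sided permutation test over 6435 splits of the males, without surrogate variables, gave a difference of 0.67 in mean log2 CPM (p = 0.0160).

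Pcdhb2 was nearly missing from the 3 libraries that stood apart, with 4 counts in SI male 25, 3 in SI male 33 and 7 in SI male 39, or 0.170, 0.135 and 0.378 CPM. The other SI males had 46 to 116 counts, or 1.61 to 2.83 CPM. GH males had 62 to 170 counts, or 1.70 to 2.94 CPM with a median of 2.05. Its Log2FC was -0.34 ± 0.13 (adjusted p = 0.330 by edgeR), and -0.19 ± 0.13 without SI males 25, 33 and 39 (adjusted p = 0.891 by edgeR). The difference in mean log2 CPM without surrogate variables was -1.28 (exact permutation test, two-sided p = 0.0331). By edgeR without surrogate variables the Log2FC was -0.73 ± 0.45 (adjusted p = 0.253 by edgeR). The size of the edgeR Log2FC in males thus moved by more than 1.5 times with the covariates and with these libraries.

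Pcdhb16 had 1.57, 1.53 and 2.0 CPM in SI males 25, 33 and 39, 3.04 CPM in SI male 38 and 4.30 to 5.20 CPM in the others, against 4.09 to 5.68 CPM in GH males. Its Log2FC was -0.23 ± 0.10 (adjusted p = 0.371 by edgeR), and -0.05 without the 3 libraries. Pcdhb19 ran from 1.91 over 3.49 to 5.97 CPM in SI males and from 4.21 over 5.29 to 6.62 CPM in GH males, with a Log2FC of -0.24 ± 0.12 (adjusted p = 0.394 by edgeR), and -0.19 ± 0.10 without the 3 libraries (adjusted p = 0.837 by edgeR). Pcdhb8 averaged -0.90 on the log2 scale against the GH male mean in the 3 libraries and -0.31 in the other SI males. It had 0.765 to 2.24 CPM in SI males with a median of 1.44, and 1.87 to 2.72 CPM in GH males. Of the SI males, 5 of 7 were below every GH male. The Log2FC was -0.29 ± 0.16 (adjusted p = 0.423 by edgeR), and -0.42 ± 0.19 without SI males 25, 33 and 39 (adjusted p = 0.789 by edgeR). Its difference in mean log2 CPM was -0.56 (exact permutation test, two-sided p = 0.00575). Among the beta genes with a coding length, Pcdhb8 also has the largest share of 31-base words found in other genes (27.1%). What this sharing does to its values was not tested.

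The exact test was run on the 11 genes named by rule in both sexes, 22 tests in all. The rule chose some of them for a small p in these mice, so their exact p-values describe them and are no further evidence. A p under 0.05 was found for 5, all in males, namely Pcdhb2, Pcdhb8, Pcdhb16, Pcdhb19 and the Pcdhgc5 row, unadjusted. Over all genes the same exact test gave a p under 0.05 for 25.3% in males and 12.3% in females. In females the lowest were those of Pcdha11 (exact permutation test, p = 0.143), Pcdhb6 (p = 0.145) and Pcdhb5 (p = 0.151). The male Pcdha11 row ranged from 2.48 CPM in SI male 39 to 9.43 CPM in SI male 25, with GH males between 3.49 and 6.13 CPM. Its Log2FC was 0.06 ± 0.22 (adjusted p = 0.931 by edgeR), and 0.02 ± 0.11 without SI males 25, 33 and 39. Calls in males came with other settings. The 5 genes with an exact p under 0.05, 21.7% of the 23, were called by edgeR when surrogate variables were estimated from the deposited counts, which called 13.1% of all genes. Pcdhb2, Pcdhb16 and Pcdhgc5, 13.0% of the 23, were called without SI male 27, where 15.3% of all genes were.

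**Figure D3:**
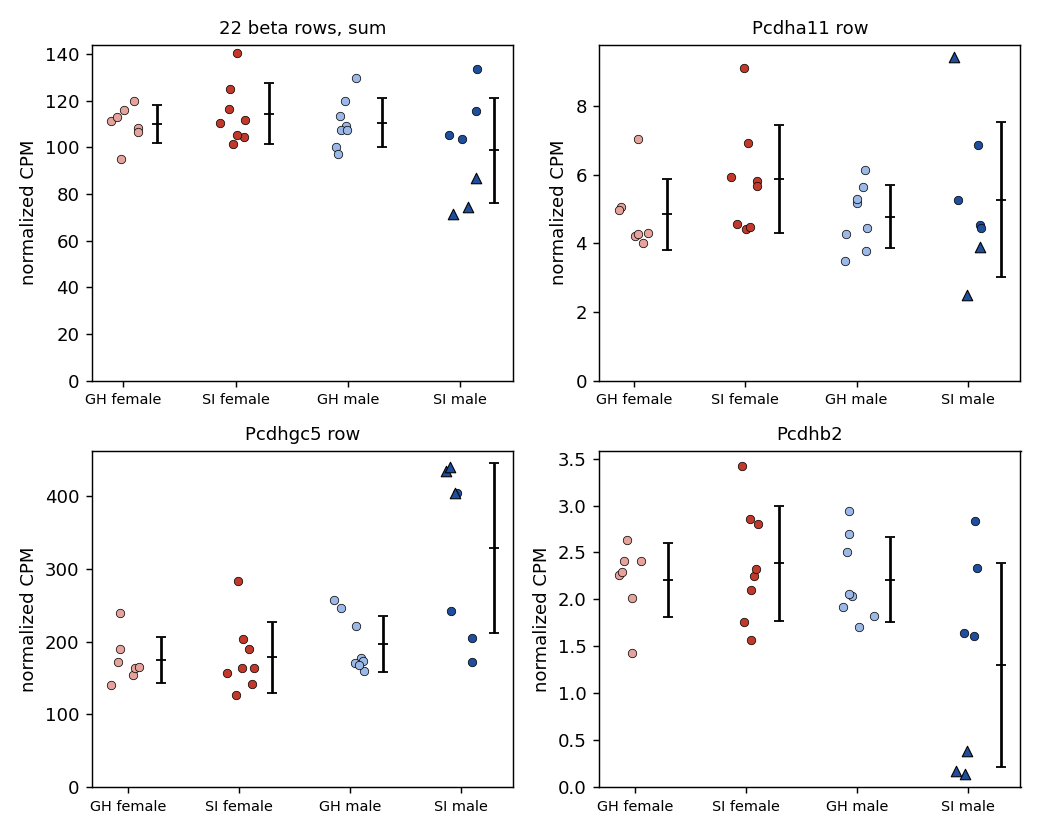
Normalized CPM of the 22 beta genes summed, the Pcdha11 row, the Pcdhgc5 row and Pcdhb2 in each of the 30 mice (points; triangles are SI males 25, 33 and 39), with group mean and SD beside them. The triangles are lowest for the beta sum and for Pcdhb2 and are among the highest for Pcdhgc5.

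The summed beta level in males divided in the same way. It was 71.5, 74.2 and 87.0 CPM in SI males 33, 25 and 39 and 104 to 134 CPM in the other 4 SI males. GH males lay between 97.1 and 130 CPM, so the 3 libraries were below every GH male and the other SI males were within or just above the GH range. The group values were 98.7 ± 22.5 CPM (SD, n = 7) and 110 ± 10.5 CPM (SD, n = 8).

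Within the beta cluster the 3 libraries did not move evenly. Each had 20 of the 21 tested beta genes below the GH male mean, with a median of -0.64, -0.74 and -0.37 on the log2 scale in SI males 25, 33 and 39. Pcdhb2 was the lowest in all 3, with a mean of -2.87. Pcdhb16 (-1.41), Pcdhb21 (-1.15) and Pcdhb19 (-1.07) followed. Pcdhb9, the most abundant beta gene, was at -0.30, and Pcdhb22 alone was above the GH mean, at 0.26. The means of the beta genes over the other 4 SI males lay between -0.31 (Pcdhb8) and 0.20 (Pcdhb12). In single mice of these 4 they ran from -0.86 (Pcdhb21 in SI male 38) to 0.64 (Pcdhb13 in SI male 7).

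These deviations were not ordered by transcript length among the beta genes. Over the 20 with a length, Spearman's rho between length and mean deviation in the 3 libraries was -0.02, and with GC content it was 0.09. These genes share libraries and sequence, so the values only describe them. The 4 transcripts over 4000 bases (Pcdhb16, Pcdhb18, Pcdhb19 and Pcdhb21) had a median of -1.11, against -0.50 for the 16 shorter ones. Pcdhb2, the lowest of all, has 2774 bases, and the next lowest, Pcdhb16, Pcdhb21 and Pcdhb19, are over 4000 bases. What part the make-up of these libraries plays in the beta and gamma values was not tested. In bulk tissue, fewer cells of a type and less RNA per cell cannot be told apart.

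**Figure D4:**
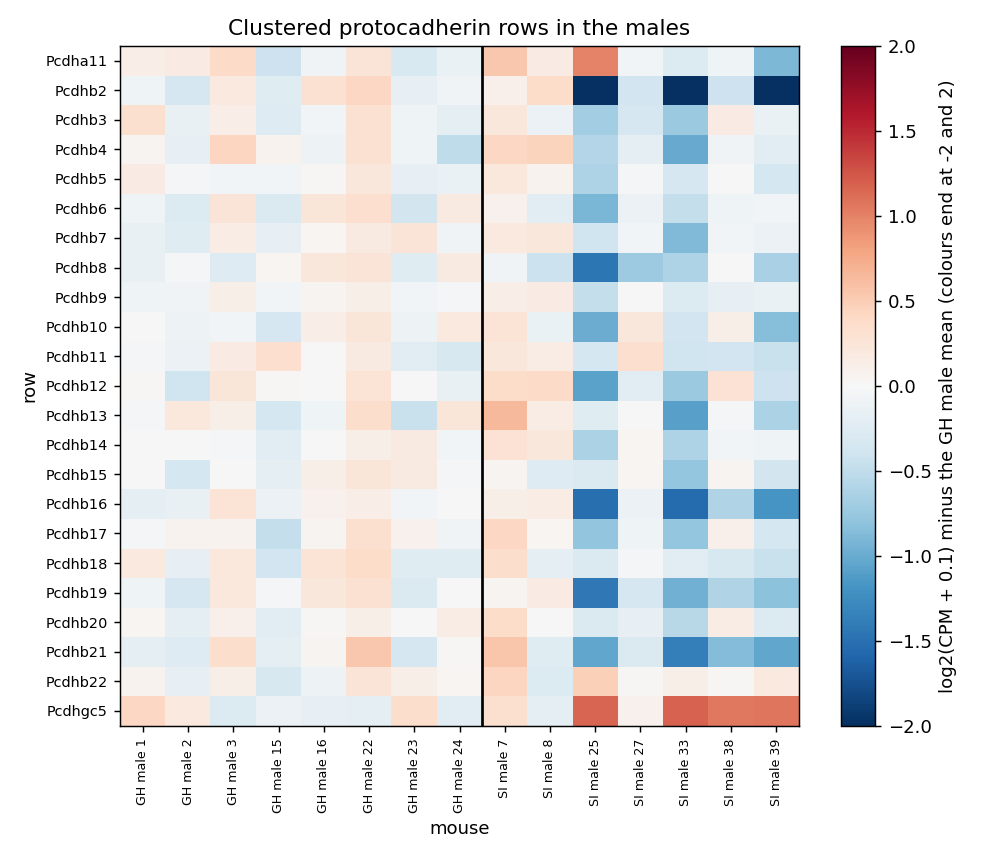
Difference of each gene in each male from the GH male mean, as log2(CPM + 0.1), with GH males on the left of the line and SI males on the right. In SI males 25, 33 and 39 nearly all beta genes are below the GH mean, most of all Pcdhb2, while Pcdhb22 and Pcdhgc5 are above it.

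More of the gamma cluster can be seen through 5 further Ensembl IDs, which the study's tables pair with the human symbols PCDHGC3, PCDHGB6, PCDHGA11, PCDHGA6 and PCDHGA3. They carry no mouse symbol here and were not counted among the 24. The study listed them because they were DEGs in these mice, so their values here are no independent evidence. In males their Log2FC was -0.44 ± 0.20, -0.32 ± 0.16, -0.22 ± 0.13, -0.36 ± 0.092 and -0.38 ± 0.11 in that order (adjusted p = 0.295 to 0.465 by edgeR). Without SI males 25, 33 and 39 it was -0.06 ± 0.059, -0.05 ± 0.088, 0.0039 ± 0.083, -0.22 ± 0.071 and -0.17 ± 0.079. In females it was -0.26 ± 0.051, -0.20 ± 0.058, -0.12 ± 0.052, -0.06 ± 0.058 and -0.01 ± 0.097. The first of these, ENSMUSG00000102918, was called in females (adjusted p = 0.0121 by edgeR), and the other 4 were not (adjusted p = 0.0678 to 0.967 by edgeR). The same fit called 3.89% of all genes. Without surrogate variables ENSMUSG00000102918 was not called in females (adjusted p = 0.119 by edgeR). All 5 were below 0 in both sexes in the fits with surrogate variables and every male, while the Pcdhgc5 row was above 0 in males. Without surrogate variables the ID paired with PCDHGA3 had a female Log2FC of 0.0070.

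The row paired with PCDHGC3 (ENSMUSG00000102918) had 143, 334 and 590 counts in SI males 25, 33 and 39, or 6.08, 15.1 and 31.9 CPM. SI male 38 had 105 CPM, the other SI males 137 to 169 CPM, and GH males 143 to 185 CPM. The Pcdhgc5 row moved the other way in the same mice. The ratio of the ENSMUSG00000102918 row to the Pcdhgc5 row was 0.014, 0.034 and 0.079 in SI males 25, 33 and 39 and 0.259 in SI male 38. It was 0.564 to 0.988 in the remaining SI males and 0.583 to 1.11 in GH males. Because gamma transcripts share their constant exons, reads from those exons could be credited to either row, and how Salmon divided them was not tested.

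In females the same ratio was lowest in SI female 53 (0.406) and in GH female 78 (0.684). These mice also had the largest share of counts on transcripts under 1000 bases in their groups, at 10.1% and 10.4%, and the highest Pcdhgc5 levels, at 283 and 239 CPM. SI male 38 had 404 CPM of the Pcdhgc5 row with a short-transcript share of only 7.17%. GH males went the other way. GH male 24 had the largest short-transcript share of its group (8.30%) and the highest ratio (1.105). The lowest ratio of that group, 0.583, was in GH male 23, with a share of 7.40%. The mean ratio was 0.946 ± 0.285 in SI females (SD, n = 8) and 1.13 ± 0.220 in GH females (SD, n = 7).

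**Figure D5:**
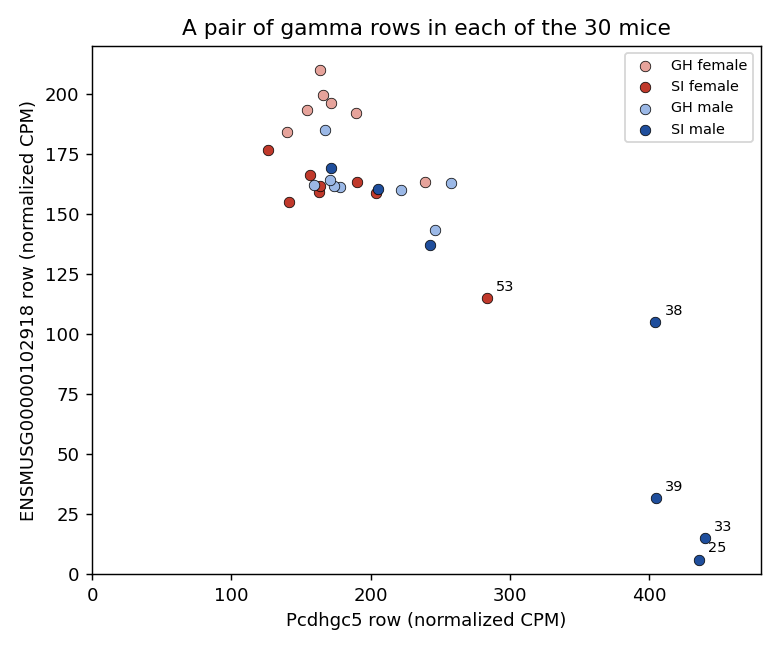
CPM of the Pcdhgc5 row against that of the ENSMUSG00000102918 row, 1 point per mouse, coloured by group. SI males 25, 33 and 39 combine 405 to 440 CPM on the first with 6.08 to 31.9 CPM on the second, and SI male 38 and SI female 53 lie between them and the rest.

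Whether the SI difference itself differed between the sexes was tested as an interaction in 1 fit of all 30 mice. None of the 23 genes was called by edgeR's quasi-likelihood test, against 0.0061% of 16391 genes. DESeq2 called 0 of the 23 as well, against 8 of 16391 genes. At an unadjusted p under 0.05 there were 2 (8.70%), against 7.03% of all genes. Pcdhb2 had a male minus female difference in Log2FC of -0.41 ± 0.16 (adjusted p = 0.647 by edgeR). The Pcdhgc5 row had 0.23 ± 0.097 (adjusted p = 0.663 by edgeR). Without SI males 25, 33 and 39 these were -0.23 ± 0.13 and 0.22 ± 0.091, again with 0 genes called.

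Regulators of the clusters were read from a list of 17 genes for architecture, methylation and silencing. In females 1 of the 17 (5.88%) was called, Wiz, which was lower in SI, against 3.89% of all genes. Wiz encodes a zinc finger partner of the G9a and GLP histone methyltransferases and had 52.6 ± 4.62 CPM in SI and 62.6 ± 4.98 CPM in GH females, a Log2FC of -0.22 ± 0.050 (adjusted p = 0.0214 by edgeR). It was not called without surrogate variables. The list's median Log2FC was 0.02.

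Ctcf, which encodes the looping factor, had 65.4 ± 4.94 CPM in SI and 63.8 ± 3.0 CPM in GH females, a Log2FC of 0.02 ± 0.031 (adjusted p = 0.736 by edgeR). Smchd1, which encodes a silencer of the clusters, had a Log2FC of 0.06 ± 0.056 (adjusted p = 0.610 by edgeR). In males 0 of the 17 were called and the median was -0.08, with Ctcf at -0.08 ± 0.050 and Smchd1 at -0.07 ± 0.078.

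Among 22 partners and effectors, such as the kinases Ptk2 and Ptk2b and the WAVE complex, 0 were called in either sex, with medians of -0.0032 in females and -0.02 in males. Among 11 non-clustered protocadherins 0 were called, with medians of -0.03 and -0.06. Of 15 other adhesion genes, 1 (6.67%) was called in females, against 3.89% of all genes, namely Celsr1, a seven-pass cadherin of planar polarity. It was lower in SI, at 13.8 ± 2.23 against 17.9 ± 2.56 CPM, with a Log2FC of -0.38 ± 0.058 (adjusted p = 0.00703 by edgeR), and it was not called without surrogate variables. The medians of that list were -0.01 in females and -0.05 in males, where 0 were called.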

How the data were processed

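Hippocampal poly(A) RNA of 30 mice was sequenced. Following the submitters' processing notes and the paper's methods, the authors trimmed reads with Trimmomatic 0.39, quantified them with Salmon 1.8.0 and named GRCm39 as the build; they deposited whole-number counts per gene without normalization. The annotation release is not given in the sources used here. The table lists genes with at least 100 counts in total, and 16439 of 17477 IDs (94.1%) were matched to a symbol by GENCODE vM1. Lengths and positions are those of NCBIM37. The strand setting of the counting is not stated.

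Within each sex, genes were filtered with filterByExpr (minimum count 10, minimum total count 15), scaled by TMM and tested with the quasi-likelihood test of edgeR 4.0.16 in R 4.3.3. Covariates were surrogate variables from svaseq of sva 3.50.0 on normalized counts (20 permutations, seed 1). P-values were adjusted by Benjamini-Hochberg over all genes, at a threshold of 0.05. Normalized CPM is the count over the TMM-scaled library size, and log2 values used a pseudocount of 0.1 CPM. Exact tests covered all 6435 splits. Simulated counts were used to test the edgeR, DESeq2 and limma-voom fits within each sex and the edgeR interaction. The fit with length and GC trends removed was tested on them without surrogate variables. The other alternatives were not tested on them, and they held no unlabelled variation between libraries. Alternatives were DESeq2 1.42.0, limma-voom (limma 3.58.1), other normalization, filters and covariates, removal of length and GC trends (lowess span 0.3), and libraries left out. The SE of a Log2FC comes from the edgeR fit, whose dispersion is estimated between mice, and each SD is taken over mice.

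The genes and lists were chosen with earlier results of these data known. Named were genes called in either sex or by any alternative, those with an unadjusted p under 0.05 in both sexes, the 3 smallest p per cluster and sex, C-type genes, the genes with most and fewest counts in each cluster, list genes called in either sex, Ctcf and Smchd1; other genes are named as examples chosen after their values were seen. Sequences of these genes are not printed here. The result of 1 listed gene is not reported here.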

Additional observations from a re-analysis of the deposited data

Results flagged for a closer look

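Among 48 groups of values checked, 4 held a mouse far from the others of its group, and chance alone would mark about 1 in 20 groups. All 4 were in females. GH female 71 had 7.03 CPM of the Pcdha11 row, where the next mouse of its group had 5.07 CPM. SI female 45 had 6.65 CPM of Pcdhb5, where the next had 5.24 CPM. SI female 41 had 10.5 CPM of Pcdhb9, below the next mouse at 12.6 CPM. GH female 78 had 2.99 CPM of Pcdhb16, below the next at 4.48 CPM. The SI males that stood apart were not marked by this rule, since 3 or 4 of 7 lay together.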

How the results depend on the processing

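No paired analysis was possible because each animal number belongs to 1 mouse and the groups share none. No setting and no omitted mouse called any of the 23 genes tested in females (0 to 0). In males 5 were called with surrogate variables from the deposited counts (an alternative chosen after seeing the data) and, when mice were left out in turn, 0 to 3, the 3 without SI male 27, a fit that called 2414 of 15790 genes (15.3%). The calls with the deposited counts were Pcdhgc5 (0.69), Pcdhb2 (-0.96), Pcdhb8 (-0.55), Pcdhb16 (-0.51) and Pcdhb19 (-0.51), and those without SI male 27 were Pcdhgc5 (0.59), Pcdhb2 (-0.58) and Pcdhb16 (-0.39). The male beta median was -0.16 without surrogate variables and -0.16 with the position digit of the sample titles as a factor, and -0.056 to 0.075 with a mouse left out. The female beta median was 0.064 to 0.11 with a mouse left out, 0.039 with the length and GC trend removed, 0.055 with limma-voom and 0.058 with the deposited counts. The interaction called 0 of the 23 genes under each alternative.

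Signs of small differences turned, none of them past the threshold. In females Pcdhgc5 was 0.031 without surrogate variables, 0.078 with the position digit, 0.0077 with limma-voom, 0.077 with the length and GC trend removed, 0.0088 with surrogate variables from deposited counts and -0.097 to 0.072 with a mouse left out. Pcdhb8 was -0.0051 with the trend removed, -0.021 with the deposited counts, -0.0087 with all 4 groups in 1 fit and -0.049 to 0.13 with a mouse left out. Pcdhb16 was -0.054 with limma-voom and -0.0068 to 0.12 with a mouse left out. In males Pcdha11 was -0.081 with the position digit and -0.086 to 0.21 with a mouse left out. Without surrogate variables, with the position digit and with the deposited counts, Pcdhb5 was -0.13, -0.16 and -0.065, Pcdhb7 -0.12, -0.092 and -0.095, and Pcdhb9 -0.097, -0.069 and -0.081. With limma-voom Pcdhb7 was -0.042 and Pcdhb9 -0.0028. Pcdhb5 was -0.00054 without SI animals 25, 33 and 39. With all 4 groups in 1 fit Pcdhb5 was -0.032 and Pcdhb6 0.058. With a mouse left out Pcdhb5 ran from -0.051 to 0.075, Pcdhb6 from -0.17 to 0.0068, Pcdhb7 from -0.031 to 0.11 and Pcdhb9 from -0.027 to 0.041. Ranges of the others with a mouse left out were 0.14 to 0.31 for female Pcdha11, 0.33 to 0.59 for male Pcdhgc5 and -0.78 to -0.10 for male Pcdhb2.

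In the female lists, without surrogate variables 0 regulators and 0 other adhesion genes were called. DESeq2 called 2 regulators (11.8%), 1 partner (4.55%), 1 non-clustered protocadherin (9.09%) and 2 other adhesion genes (13.3%). The same DESeq2 fit called 1262 of all 16026 genes. Over all genes, females had 624 calls, 0 without surrogate variables, 0 with the position digit, 1262 with DESeq2 and 1166 with the trend removed. Calls over all males were 0, 44 with DESeq2, 2414 without SI male 27 and 2072 with surrogate variables from the deposited counts. The causes were not tested. Pcdhb1 was too sparse to test.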
